A study of Mus musculus with 9 samples.

Results

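The 9 genes described here are 8 genes of the Krüppel-like factor family (Klf2, Klf3, Klf6, Klf7, Klf10, Klf11, Klf12 and Klf13) and S1pr1, the receptor for sphingosine 1-phosphate that guides lymphocytes out of lymphoid tissue. They were picked by name from a table of 35288 Ensembl mouse genes, and all 9 were found in it. Enough counts for testing were present for 8 of them, whereas Klf3 was too low. The cells were T15, a murine Smarcb1-negative line of peripheral T-cell lymphoma, and RNA-seq libraries of 3 groups with 3 replicates each were compared. All groups derive from this line and share its lack of native Smarcb1, a core subunit of the SWI/SNF chromatin remodeling complex. The SAHA group had received 1 µM of SAHA (vorinostat), an inhibitor of histone deacetylases, for 72 h. The paper reports strong apoptosis of T15 cells at this dose, with most cells dead, whereas Smarcb1 re-expression slowed growth and left viability unaffected. Whether differences with SAHA stem from dying or from surviving cells was not tested. The Smarcb1-RE group carried a lentiviral Smarcb1 cDNA in the plasmid pInd20, had been selected with G418 and was induced with doxycycline (Dox, 0.5 µg/µl) for 72 h. The methods speak of stable clones, and the sample titles do not tell whether the 3 Smarcb1-RE libraries came from separate clones. Per the labels, vehicle was the counterpart of SAHA and a plasmid without Smarcb1 that of re-expression, and neither is assigned to the 3 control libraries. The text of the study calls the sequenced controls untreated, whereas its scheme of re-expression includes cells with the empty plasmid under Dox, without saying whether these were sequenced. Transduction, selection and Dox thus cannot be told apart from Smarcb1 itself wherever Smarcb1-RE is set against control.

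Krüppel-like factors are zinc finger proteins that bind GC-rich and CACCC-containing DNA and activate or repress transcription. In resting T cells, Klf2 holds cells in quiescence and drives transcription of S1pr1, so that loss of Klf2 keeps T cells from leaving the thymus. Foxo1 acts upstream of Klf2 and also on Il7r and Ccr7, while antigen stimulation turns this program off. Klf10 and Klf11 are known as early genes of TGF-beta signaling, and Klf3 and Klf12 recruit the corepressor CtBP.

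Library totals lay between 20900424 and 24941408 counts, lowest in Smarcb1-RE. Levels are given as counts or as CPM (read counts scaled to library size with TMM factors), and 3 counts in a library correspond to 0.123 to 0.133 CPM. Smarcb1 had 2 to 8 counts in control, 3 to 13 in SAHA and 142 to 151 in Smarcb1-RE, which was as labelled. T cell markers summed to 3707 to 3935 CPM in control, 3843 to 3942 CPM with SAHA and 4552 to 4618 CPM in Smarcb1-RE, with Cd2 and Thy1 at or near 0. Of these sums, Ptprc alone made up 640.9 CPM on average in control, 1006.4 CPM with SAHA and 1640.3 CPM in Smarcb1-RE. Of 10 tested markers, 2 were higher and 5 lower in either comparison with control. Over all tested genes, 32.6% were higher and 34.3% lower with SAHA, and 39.2% and 38.6% in Smarcb1-RE. Scaled by library totals only, 4 of the 10 markers were higher and 5 lower in Smarcb1-RE. Ptprc (log2 fold change 0.65 with SAHA and 1.36 in Smarcb1-RE) and Lck (-0.06 and 0.69) were highest in Smarcb1-RE, whereas Cd247 (-0.61 and -0.28) and Cd3g (0.40 and -0.35) were lower there than in control. The part of these differences in the results was not tested. Myeloid and erythroid lists together gave no gene with enough counts for testing, and of 6 endothelial markers only Pecam1 had more than 3 counts in a library. The B cell list was at 0.935 to 1.14 CPM in control and 7.25 to 7.96 CPM in Smarcb1-RE through Ms4a1 and Pax5, with Cd79b at 0 to 2 counts in all libraries. Control replicate 1 stood apart from the other controls, with a chi-square per gene of 13.4 and 15.0 against them, compared with 2.08 to 4.69 in other replicate pairs.

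Promoter sequences from 250 bases before to 50 bases after the start were found in RefSeq (GRCm38.p6) for 7 of the 9 genes, all but Klf10 and S1pr1. Klf2, Klf7 and Klf11 are shown because Klf2 and Klf7 were lower with SAHA and higher in Smarcb1-RE, whereas Klf11 differed from control by the test in Smarcb1-RE alone. The windows are chr8:72318812-72319111 on the plus strand, chr1:64121340-64121639 on the minus strand and chr12:24651121-24651420 on the plus strand. Capitals mark the letters CACCC and GGGCGG on either strand and, in Klf2, a stretch matching the MEF2 consensus.
Klf2: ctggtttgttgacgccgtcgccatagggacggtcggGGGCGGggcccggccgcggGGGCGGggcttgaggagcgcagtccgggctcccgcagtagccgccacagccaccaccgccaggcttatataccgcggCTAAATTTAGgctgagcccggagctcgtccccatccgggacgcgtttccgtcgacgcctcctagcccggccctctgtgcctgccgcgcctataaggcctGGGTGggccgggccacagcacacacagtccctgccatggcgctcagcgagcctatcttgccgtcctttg
Klf7: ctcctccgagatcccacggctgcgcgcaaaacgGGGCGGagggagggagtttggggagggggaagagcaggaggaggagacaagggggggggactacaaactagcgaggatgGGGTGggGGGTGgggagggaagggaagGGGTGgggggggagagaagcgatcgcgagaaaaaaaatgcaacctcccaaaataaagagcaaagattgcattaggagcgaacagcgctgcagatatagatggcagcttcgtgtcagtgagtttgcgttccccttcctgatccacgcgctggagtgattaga
Klf11: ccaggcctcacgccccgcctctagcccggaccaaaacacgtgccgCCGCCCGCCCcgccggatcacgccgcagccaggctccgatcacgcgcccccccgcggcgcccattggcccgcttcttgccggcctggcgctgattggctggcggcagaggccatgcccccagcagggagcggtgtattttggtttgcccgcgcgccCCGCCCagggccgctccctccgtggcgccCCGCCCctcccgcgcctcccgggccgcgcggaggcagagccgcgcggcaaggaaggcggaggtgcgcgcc
The Klf2 window held the MEF2 match, 2 GGGCGG and 1 CACCC. None of the other 6 windows held a MEF2 match, which is found in 3.19% of 32851 RefSeq promoters of the same length. The RefSeq start used for Klf12 lay 134882 bases from its GENCODE gene start, inside the gene, and that of Klf7 892 bases. The sequence at these 2 GENCODE gene starts was not searched. Klf7 had 3 CACCC and 1 GGGCGG, and Klf11 had 4 GGGCGG, some of which overlap, without any CACCC. At least 1 CACCC was present in 57.5% of all promoters and at least 1 GGGCGG in 35.7%. The letters GTAAACA, a forkhead motif searched on both strands, occurred in none of the 7 windows and in 3.65% of all promoters. Such matches describe the letters only and say nothing about binding in T15 cells.

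The question of the SAHA comparison was how the levels of the 8 Klf genes and S1pr1 differed after SAHA, at a dose that induced apoptosis. Among the 8 tested genes, 4 were higher with SAHA (Klf6, Klf10, Klf13 and S1pr1), 2 were lower (Klf2 and Klf7) and 2 were not called. Over all 13697 tested genes, 32.6% were called higher and 34.3% lower at an adjusted p-value under 0.05 in edgeR's quasi-likelihood test. With Smarcb1-RE, again 4 were higher (Klf2, Klf7, Klf11 and Klf12) and 2 lower (Klf10 and S1pr1), with 39.2% higher and 38.6% lower over all genes. The median log2 fold change of the 8 genes was 0.23 with SAHA and 0.37 in Smarcb1-RE, and that of all tested genes was 0.00 and 0.01. Both comparisons use the same 3 control libraries. The fold changes of the direct comparison of Smarcb1-RE with SAHA rest on the libraries of these groups, although controls enter the filter, the scaling and the shared estimate of the spread. It called all 8 genes, 4 higher and 4 lower (37.7% and 36.8% of all genes). Since most genes of this experiment were called in each comparison, counts of called genes, among members and in the lists, are read against these shares. The size and direction of each gene follow.

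**Figure D1:**
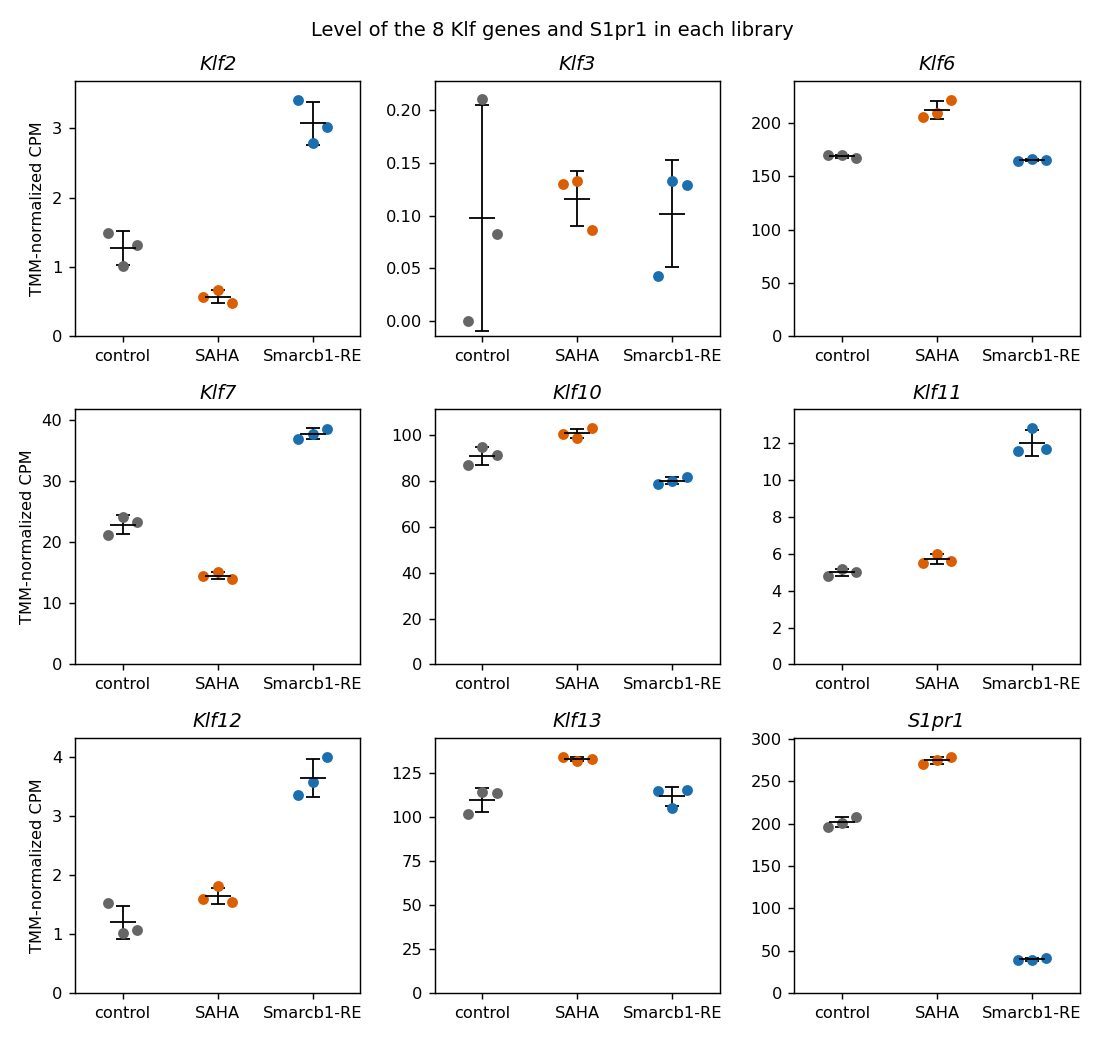
TMM-normalized CPM (linear axis, from 0 except for Klf3, whose error bar passes below 0) of the 9 genes in each of the 9 libraries, with points for libraries and bars for mean ± SD of 3 libraries per group. S1pr1 falls from 201.6 CPM in control to 39.7 CPM in Smarcb1-RE, while Klf2 rises from 1.27 to 3.07 CPM and is at 0.566 CPM with SAHA.

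S1pr1 (ENSMUSG00000045092, chr3:115710433-115715072, minus strand of GRCm38) showed the largest difference of the 9 genes in Smarcb1-RE. It had 4615, 4753 and 5054 counts in the control libraries, 6249, 6247 and 6471 with SAHA and 916, 874 and 957 in Smarcb1-RE. No libraries of different groups overlapped, and every Smarcb1-RE library was far below the lowest control. At 201.6 ± 5.84 CPM (SD, n = 3) in control and 39.7 ± 1.39 CPM in Smarcb1-RE, S1pr1 was 5.08-fold lower (log2 fold change -2.35, SE 0.04, adjusted p = 5.96e-13). With SAHA it was at 275.0 ± 4.08 CPM and thus 1.36-fold higher than control (log2 fold change 0.45, SE 0.04, adjusted p = 5.48e-07). Between Smarcb1-RE and SAHA the gene differed 6.93-fold (log2 fold change -2.79, 95% interval -2.89 to -2.70, adjusted p = 1.21e-13). In bulk RNA, fewer cells that express a gene and less RNA per cell cannot be told apart, which applies to all values here.

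Klf2 (ENSMUSG00000055148, chr8:72319033-72321656, plus strand), the factor known to drive S1pr1 in T cells, went the opposite way in both comparisons. It was a scarce transcript with 35, 24 and 32 counts in control, 13, 15 and 11 with SAHA and 80, 63 and 70 in Smarcb1-RE. The 3 groups did not overlap, with SAHA lowest and Smarcb1-RE highest. Relative to control, Klf2 was 2.24-fold lower with SAHA (log2 fold change -1.16, SE 0.25, adjusted p = 0.00128). In Smarcb1-RE it was 2.41-fold higher (log2 fold change 1.27, SE 0.21, adjusted p = 0.000114). The direct comparison of Smarcb1-RE with SAHA gave a 5.39-fold difference (log2 fold change 2.43, 95% interval 1.92 to 2.94, adjusted p = 8.97e-07). Thus S1pr1 transcripts were fewest in the group with most Klf2 transcripts and most abundant in the group with fewest. None of the 31-base words of Klf2 transcripts occurred in another gene.

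Klf7 (ENSMUSG00000025959, chr1:64029447-64122282, minus strand), known for its part in the growth of neurons, was the other gene that was lower with SAHA and higher in Smarcb1-RE. Its levels were 21.1, 24.1 and 23.2 CPM in control, 14.4, 15.1 and 13.9 CPM with SAHA and 36.8, 37.7 and 38.5 CPM in Smarcb1-RE, again without overlap. With SAHA it was 1.58-fold lower (log2 fold change -0.66, SE 0.06, adjusted p = 1.41e-06). In Smarcb1-RE it was 1.65-fold higher (log2 fold change 0.72, SE 0.06, adjusted p = 1.23e-07), and 2.61-fold higher than with SAHA (adjusted p = 6.34e-10). On the opposite strand the lincRNA Gm26649 covers part of Klf7, and 38.7% of the 31-base words of Klf7 transcripts occur in it as well. The library kit was directional, but the strand setting used for counting is not given in the sources used here, and Klf7 values are uncertain to that extent.

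Klf11 and Klf12, both transcriptional repressors, were called higher in Smarcb1-RE and not called with SAHA. Klf11 (ENSMUSG00000020653, chr12:24651274-24662789, plus strand) was at 4.8, 5.15 and 5.02 CPM in control, 5.5, 6.01 and 5.6 CPM with SAHA and 11.6, 12.8 and 11.7 CPM in Smarcb1-RE. All Smarcb1-RE libraries lay above all others, a 2.41-fold difference from control (log2 fold change 1.27, SE 0.09, adjusted p = 3.76e-08). With SAHA the log2 fold change was 0.19 (95% interval -0.02 to 0.40, adjusted p = 0.0972), which leaves room for a small rise. Smarcb1-RE exceeded SAHA 2.11-fold (adjusted p = 1.81e-07), so that the difference between both treatments was itself larger than the spread.

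Klf12 (ENSMUSG00000072294, chr14:99870632-100284679, minus strand) had 36, 24 and 26 counts in control, 37, 41 and 36 with SAHA and 79, 81 and 93 in Smarcb1-RE. It was 3.03-fold higher in Smarcb1-RE than in control (log2 fold change 1.60, SE 0.20, adjusted p = 8.93e-06) and 2.21-fold higher than with SAHA (adjusted p = 0.000143). The difference between SAHA and control was not called (log2 fold change 0.46, SE 0.21, adjusted p = 0.0744) and depended on control replicate 1, which had the highest Klf12 of the controls. Without that library the log2 fold change was 0.66 and was called (adjusted p = 0.017). It was also called when only genes with at least 10 counts in every library were tested (log2 fold change 0.49, adjusted p = 0.0415). Of its 31-base words, 7.02% were shared with other genes.

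Klf6, Klf10 and Klf13, the 3 most abundant Klf genes among the 9 genes, moved less, and the higher level with SAHA was their common feature. Klf6 (ENSMUSG00000000078, chr13:5861482-5870394, plus strand), an immediate response factor and growth inhibitor, had 169.0 ± 1.37 CPM in control, 212.6 ± 8.37 CPM with SAHA and 165.3 ± 0.715 CPM in Smarcb1-RE. SAHA libraries were at 205.7, 210.0 and 221.9 CPM, all above the highest control of 169.9 CPM, and the gene was 1.26-fold higher (log2 fold change 0.33, SE 0.04, adjusted p = 6.98e-06). Between Smarcb1-RE and control the log2 fold change was -0.03 (95% interval -0.11 to 0.05, adjusted p = 0.465). Scaled by library totals only, it was 0.13 with an adjusted p of 0.00813. This scaling moved the median of all genes in Smarcb1-RE against control to 0.173, from 0.014 with TMM, and the split of called genes to 6476 higher and 4141 lower, from 5371 and 5282. Of the 8 genes, 6 were then higher and 1 lower in Smarcb1-RE, in place of 4 and 2.

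Klf13 (ENSMUSG00000052040, chr7:63886351-63938915, minus strand), known to regulate the chemokine gene Ccl5 in activated T cells, was at 101.8, 114.0 and 113.5 CPM in control and 134.1, 131.7 and 133.1 CPM with SAHA. These groups did not overlap, and the gene was 1.21-fold higher with SAHA (log2 fold change 0.28, SE 0.05, adjusted p = 0.00039). Smarcb1-RE libraries at 114.7, 105.2 and 115.2 CPM overlapped the controls (log2 fold change 0.03, 95% interval -0.09 to 0.14, adjusted p = 0.658). With library totals only that difference was 0.18 and was called (adjusted p = 0.00744). Klf13 was lower in Smarcb1-RE than with SAHA (log2 fold change -0.25, SE 0.05, adjusted p = 0.00068), but not called with library totals only (log2 fold change -0.09, adjusted p = 0.135).

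Klf10 (ENSMUSG00000037465, chr15:38291463-38300706, minus strand) had 87.1, 94.9 and 91.3 CPM in control, 100.7, 99.0 and 103.1 CPM with SAHA and 78.9, 80.3 and 81.7 CPM in Smarcb1-RE. The groups were ordered like those of S1pr1 but lay close together. Klf10 was 1.11-fold higher with SAHA (log2 fold change 0.15, SE 0.04, adjusted p = 0.00732) and 1.13-fold lower in Smarcb1-RE (log2 fold change -0.18, SE 0.04, adjusted p = 0.00161). The latter depended on the scaling, since with library totals only the log2 fold change was -0.02 (adjusted p = 0.64). Smarcb1-RE differed from SAHA by -0.33 (SE 0.04, adjusted p = 1.22e-05), and by -0.17 (adjusted p = 0.00341) with library totals only.

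Klf3 (ENSMUSG00000029178, chr5:64803388-64832901, plus strand), a repressor that is itself a target of other Krüppel-like factors in blood cells, was at the limit of detection. It had 0, 5 and 2 counts in control, 3, 3 and 2 with SAHA and 1, 3 and 3 in Smarcb1-RE, at or close to the 3 counts that an observed 0 allows. All groups overlapped, and a difference was not detectable at this depth.

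**Figure D2:**
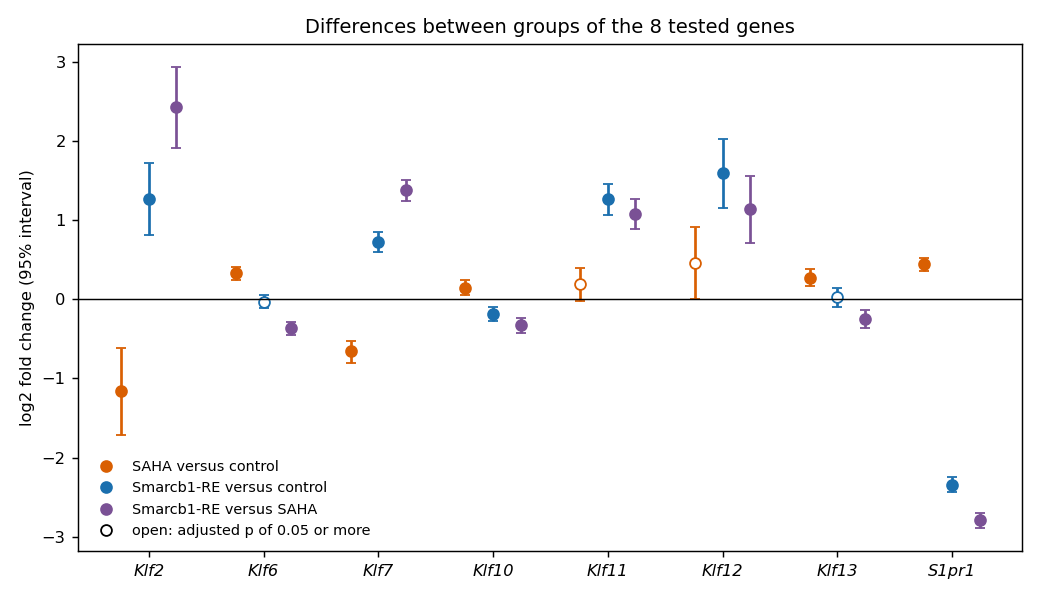
Log2 fold change with 95% interval (bars) of the 8 tested genes in the 3 comparisons; open points have an adjusted p-value of 0.05 or more. The Smarcb1-RE differences of S1pr1 reach -2.35 and -2.79 at the bottom, whereas Klf2 lies between -1.16 (SAHA versus control) and 2.43 (Smarcb1-RE versus SAHA).

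Per kilobase of exon, S1pr1 was the most abundant of the 9 genes in control (66.2 ± 1.92 CPM per kb), ahead of Klf6 (38.5 ± 0.313), Klf10 (21.8 ± 0.93) and Klf13 (14.6 ± 0.922). Klf7 at 2.81, Klf11 at 1.15, Klf2 at 0.689, Klf12 at 0.172 and Klf3 at 0.0087 CPM per kb followed, with no overlap between neighbours on the length of merged exons. This order was the same with SAHA, except that the ranges of Klf2 and Klf12 overlapped. In Smarcb1-RE, S1pr1 dropped to the fourth place with 13.0 ± 0.456 CPM per kb, below Klf13 at 14.8 ± 0.747, and the Klf genes kept their order. The places depended on the length used, since Klf6 ranked above S1pr1 in control with the mean transcript length and fell to rank 4 with the mean coding transcript length. With the mean transcript length, Klf12 also overlapped Klf2 in control (0.679 and 0.689 CPM per kb) and exceeded it with SAHA (0.932 and 0.307) and in Smarcb1-RE (2.06 and 1.66), and Klf13 came before Klf10 in Smarcb1-RE (53.1 and 50.7, with overlap). Summed over the 17 Klf genes of the table, the level was 108.0 to 115.2 CPM per kb in control, 132.3 to 138.0 with SAHA and 108.7 to 111.7 in Smarcb1-RE. Klf6, Klf10 and Klf13 together made up 64.9% to 67.6% of this sum in every library. They were not the 3 highest of all Klf genes in control and with SAHA. Klf16, which is not among the 9 genes, was at 21.9 CPM per kb in control and 21.8 with SAHA, above Klf13 (14.6 and 17.7). In Smarcb1-RE it was at 13.2, below Klf13. The share of Klf2 was 0.476% to 0.746% in control, 0.186% to 0.264% with SAHA and 1.39% to 1.68% in Smarcb1-RE. The sum and the shares were taken on the length of merged exons only.

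Of the 9 other Klf genes of the table, 5 had enough counts for testing. With SAHA 2 of them were higher and none lower, and in Smarcb1-RE 4 were higher and 1 lower (median log2 fold change -0.01 and 0.46). Klf4, which restrains proliferation of CD8 T cells, had 469 to 484 counts in control, 1039 to 1123 with SAHA and 565 to 701 in Smarcb1-RE, and rose in both (log2 fold change 1.24, adjusted p = 9.5e-09, and 0.46, adjusted p = 4.37e-05). Klf9, a target of glucocorticoid and thyroid hormone receptors, went from 3.26 ± 0.197 CPM to 5.8 ± 0.676 CPM with SAHA and 14.9 ± 1.11 CPM in Smarcb1-RE (log2 fold change 0.83 and 2.20). Klf16 fell in Smarcb1-RE from 58.6 ± 4.1 to 35.2 ± 0.851 CPM (log2 fold change -0.73, adjusted p = 7.39e-08) and was at 58.3 ± 2.11 CPM with SAHA. Klf5, an epithelial and progenitor factor, had 1, 0 and 2 counts in control, none with SAHA and 18, 19 and 24 in Smarcb1-RE. Klf8 was at 14.8 ± 1.86 CPM in control and 17.0 ± 0.705 CPM in Smarcb1-RE (log2 fold change 0.20, adjusted p = 0.0465). Its libraries overlapped between these groups, with 12.9 to 16.6 CPM in control and 16.3 to 17.7 CPM in Smarcb1-RE. Klf1, Klf14, Klf15 and Klf17 were not tested, and Klf15 and Klf17 had no count in any library.

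**Figure D3:**
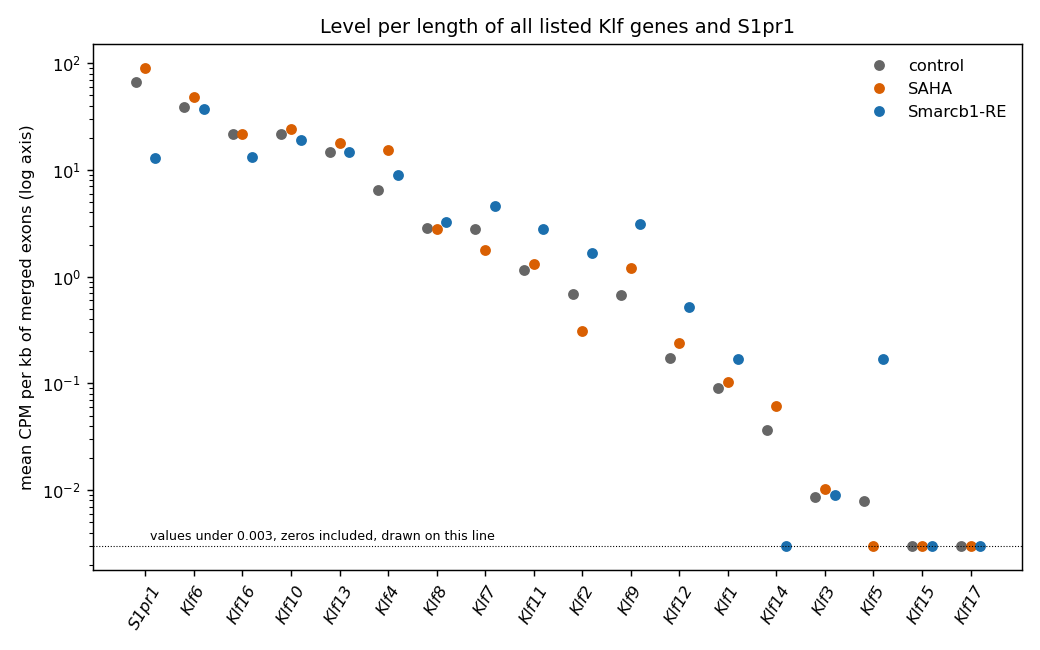
Mean CPM per kb of merged exons (log axis) of the 17 Klf genes and S1pr1 in the 3 groups, in order of the control level, with values under 0.003 placed on the dotted line. S1pr1 in Smarcb1-RE (13.0) drops among the abundant Klf genes, while Klf2, Klf9, Klf11 and Klf12 are highest in Smarcb1-RE.

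The related Sp factors, which bind the same GC-rich letters, had 6 of 9 genes tested. With SAHA 3 were higher and 2 lower (median 0.08), and in Smarcb1-RE 2 were higher and none lower (median 0.32). With library totals only, Sp1 and Sp3 were called as well, which made 4 higher. Sp8 was highest in Smarcb1-RE, with 0.531 ± 0.0563 CPM in control, 1.16 ± 0.0475 with SAHA and 7.12 ± 0.223 in Smarcb1-RE (log2 fold change 1.12 and 3.73). Sp4 was raised in Smarcb1-RE (28.8 ± 4.04 to 64.9 ± 3.53 CPM, log2 fold change 1.17), and Sp9 with SAHA (0.126 ± 0.0844 to 1.02 ± 0.165 CPM, log2 fold change 2.96).

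The genes that Klf2 and S1pr1 share a program with were examined next. The list of trafficking genes known to depend on Klf2 consisted here of Ccr7, Il7r, Itgb7 and S1pr4. With SAHA, in which Klf2 itself was lower, all 4 were higher (median log2 fold change 0.57), and with the replicate number as a block 3 were. In Smarcb1-RE, 2 were higher and 2 lower (median -0.95). Ccr7, the receptor for entry into lymph nodes, had 61.6, 55.0 and 55.0 CPM in control, 81.6, 82.4 and 83.6 CPM with SAHA and 13.0, 12.3 and 11.5 CPM in Smarcb1-RE (log2 fold change 0.53 and -2.22, adjusted p = 1.73e-06 and 1.72e-11). Il7r, the survival receptor for interleukin 7, had 36.4, 36.1 and 36.5 CPM, 48.7, 51.5 and 47.2 CPM, and 7.16, 6.64 and 7.5 CPM in the same order (log2 fold change 0.43 and -2.35, adjusted p = 5.94e-06 and 1.01e-11). Both therefore followed the order of S1pr1, without overlap between groups. The gut homing integrin Itgb7 rose with Klf2 in Smarcb1-RE from 0.49 ± 0.0946 to 2.15 ± 0.278 CPM (log2 fold change 2.12, adjusted p = 6.91e-06), with 0.797 ± 0.168 CPM in SAHA (0.70, adjusted p = 0.046).

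**Figure D4:**
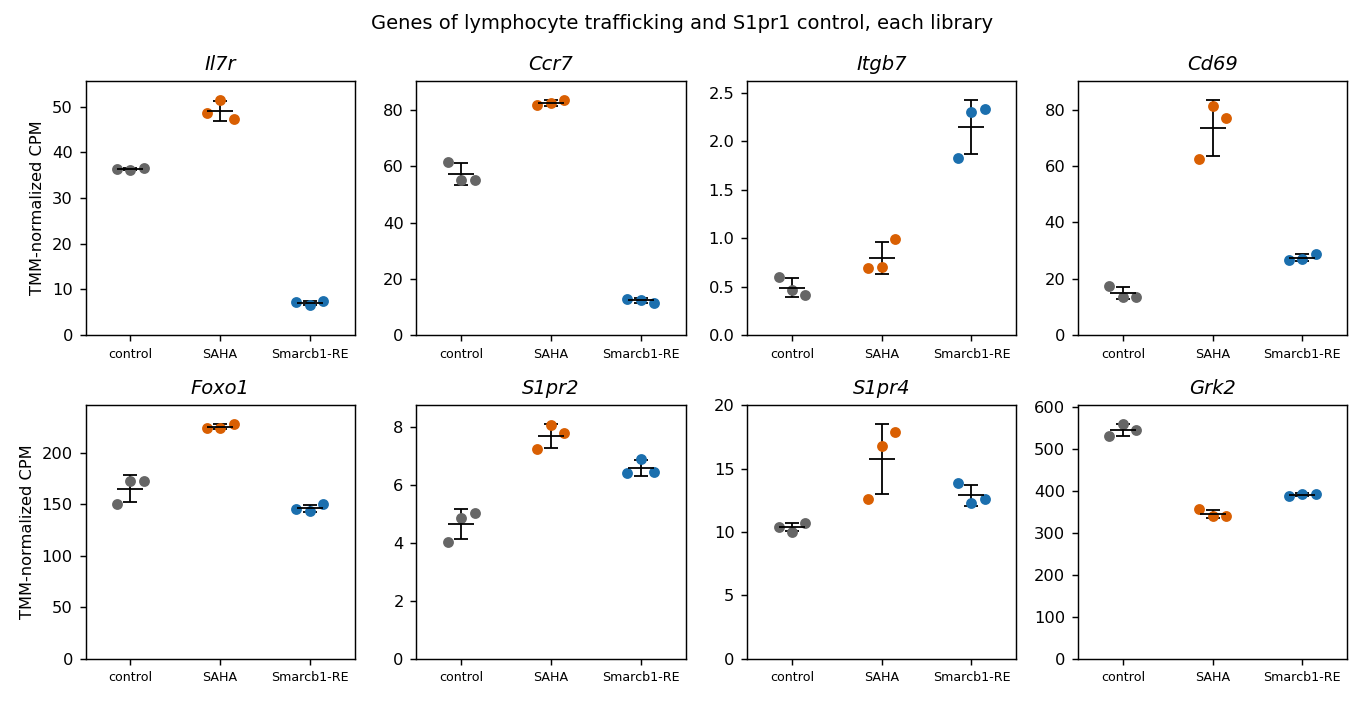
TMM-normalized CPM (linear axes from 0) of 8 genes of lymphocyte trafficking and S1pr1 control in each library, with points for libraries and bars for mean ± SD of 3 libraries. Il7r and Ccr7 show the order of S1pr1, from 7.1 and 12.3 CPM in Smarcb1-RE to 49.1 and 82.5 CPM with SAHA, whereas Itgb7 is highest in Smarcb1-RE (2.15 CPM).

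The likeness of patterns was measured as the root mean square difference of mean-centred log2 CPM over the 9 libraries, among 10726 protein-coding genes. Il7r was the gene most like S1pr1, with a difference of 0.0454, followed by the desaturase Scd1 (0.0983), Ccr7 (0.105), the iron reductase Cybrd1 (0.113) and Tnfrsf8 (0.129), which encodes CD30. These genes are far apart on the genome from S1pr1 on chromosome 3, for example Il7r on chromosome 15 and Ccr7 on chromosome 11. For Klf2 the closest were Herpud1 (0.189), Cracr2a (0.191), Hspb6 (0.226), Cyp4f16 (0.229) and Mcrip1 (0.233). Herpud1, a component of degradation at the endoplasmic reticulum, was at 82.9 CPM on average in control, 38.1 CPM with SAHA and 193.0 CPM in Smarcb1-RE. Klf7 was the member closest to Klf2 (0.42, with 114 genes closer), and S1pr1 was at 2.14, with 10658 genes closer. The measure is a description over 9 libraries of 3 groups, and low counts of Klf2 add counting noise to its distances.

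Beside S1pr1, the receptors S1pr2 and S1pr4 had enough counts for testing, and both were higher in either treatment. S1pr4 went from 10.4 ± 0.337 to 15.8 ± 2.77 CPM with SAHA and 12.9 ± 0.83 CPM in Smarcb1-RE (log2 fold change 0.61 and 0.32). S1pr2, which couples to Gna13 and confines cells to tissue, went from 4.64 ± 0.525 to 7.69 ± 0.415 and 6.57 ± 0.285 CPM (0.73 and 0.50). S1pr3 and S1pr5 had no count. The fall in Smarcb1-RE was therefore seen in S1pr1 and not in the other tested receptors. Among genes that make, degrade or export the ligand, 8 of 10 were tested, with 4 higher and 2 lower with SAHA and 5 higher and 2 lower in Smarcb1-RE (median 0.23 and 0.41). The kinase Sphk1 was scarce, with 0.0835 ± 0.0405 CPM in control, 0.827 ± 0.164 with SAHA and 0.346 ± 0.0416 in Smarcb1-RE (log2 fold change 3.22 and 1.98). The phosphatase Plpp2 rose with SAHA (log2 fold change 1.66, adjusted p = 7.49e-09). The red cell exporter Mfsd2b was not called in Smarcb1-RE (log2 fold change 0.89, SE 0.47, adjusted p = 0.0997). Sgpl1, the lyase that degrades the ligand, was higher in both (0.64 and 0.30). The phosphatase Sgpp2 was lower with SAHA and higher in Smarcb1-RE (-0.75 and 0.56), like Klf2.

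Of 10 genes that transmit or limit S1pr1 signals, 5 were higher and 3 lower with SAHA, and 3 higher and 6 lower in Smarcb1-RE (median 0.12 and -0.20). Cd69, an activation marker whose protein holds S1pr1 inside the cell, had 17.3, 13.5 and 13.7 CPM in control, 62.4, 81.4 and 77.1 CPM with SAHA and 26.6, 27.0 and 28.9 CPM in Smarcb1-RE. It was thus higher in both treatments, by 2.31 (adjusted p = 4.35e-09) and 0.89 (adjusted p = 1.22e-05) on the log2 scale. Arrb1, an arrestin that removes receptors from the surface, was higher as well (0.69 and 1.48), while the receptor kinase Grk2 fell from 545.5 ± 14.5 to 345.7 ± 9.32 and 391.0 ± 3.3 CPM (-0.66 and -0.48). The Gi subunit Gnai2 was lower in Smarcb1-RE (-0.33, adjusted p = 4.8e-05).

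Upstream of Klf2, all 7 listed genes were tested, with 4 higher and 2 lower with SAHA and 4 higher and 3 lower in Smarcb1-RE (median 0.39 and 0.24). Foxo1 was at 164.9 ± 13.1 CPM in control, 225.3 ± 2.51 CPM with SAHA and 146.2 ± 3.4 CPM in Smarcb1-RE. The order of its means was that of S1pr1 and the reverse of Klf2 (log2 fold change 0.45, adjusted p = 6.82e-06, and -0.17, adjusted p = 0.00886). However, Smarcb1-RE libraries (143.3 to 150.0 CPM) overlapped the controls (149.8 to 172.6 CPM). With library totals only, the log2 fold change in Smarcb1-RE was -0.01 (adjusted p = 0.816). Of the MEF2 factors, which bind the Klf2 promoter, Mef2c rose in both (0.58 and 1.09), and Mef2a was lower with SAHA and higher in Smarcb1-RE (-0.20, adjusted p = 0.00613, and 0.48, adjusted p = 2.78e-06). Map2k5, the kinase that activates ERK5, was lower in both (-0.66 and -0.28), the latter not called with library totals only (-0.12, adjusted p = 0.0767).

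Genes reported to rise when Klf2 is lost were chosen as a further list, of which 3 of 4 were tested. With SAHA 1 was higher and none lower, and in Smarcb1-RE 1 was higher and 1 lower (median 0.09 and -0.35). Cxcr3 was higher with SAHA (0.39, adjusted p = 6.81e-05) and lower in Smarcb1-RE (-0.35, adjusted p = 0.000192). Cxcr5, the receptor for entry into B cell follicles, was at 193.2 ± 7.85 CPM in control and 228.6 ± 6.03 CPM in Smarcb1-RE (log2 fold change 0.24, adjusted p = 0.000153). Il4 was not called, at 0.447 to 0.617 CPM on average in the 3 groups (log2 fold change -0.32 with SAHA and -0.46 in Smarcb1-RE).

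Other genes of T cell quiescence were mostly higher with SAHA, with 11 of 12 tested genes higher and none lower (median 0.34), beside 32.6% higher over all genes. In Smarcb1-RE 5 were higher and 5 lower (median 0.09), or 7 and 2 with library totals only. Most of the differences with SAHA were small, since 1 of the 12 was called at a minimum log2 fold change of 1. The antiproliferative genes Tob1 and Btg1 were raised by 1.40 (adjusted p = 1.63e-07) and 0.91 (adjusted p = 8.29e-09) on the log2 scale with SAHA. In Smarcb1-RE, Btg1 was raised by 1.60 (adjusted p = 1.87e-11), while Tob1 was not called (0.11, adjusted p = 0.382). Foxj1 was lower in Smarcb1-RE (log2 fold change -2.30, adjusted p = 0.00401), at 0.588 ± 0.298 CPM in control and 0.115 ± 0.0881 CPM. With library totals only, 7 were higher and 2 lower in Smarcb1-RE, and Foxo1, Foxp1 and Tob2 were no longer called lower. Btg2 was higher with SAHA and lower in Smarcb1-RE (0.75, adjusted p = 5.42e-05, and -0.59, adjusted p = 0.000615). Slfn2 had no count.

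Of the corepressors used by Krüppel-like factors, 3 of 4 were lower with SAHA and 3 of 4 in Smarcb1-RE, where 1 was higher (median -0.56 and -0.27). Over all genes, 34.3% and 38.6% were lower. At a minimum log2 fold change of 1, 0 of the 4 were called in either comparison with control. Ctbp1 fell from 296.0 ± 5.24 to 162.5 ± 1.64 CPM with SAHA and 164.1 ± 6.56 CPM in Smarcb1-RE (log2 fold change -0.87 and -0.85, adjusted p = 3.74e-09 and 8.54e-10). Ctbp2, far less abundant, was lower with SAHA (-0.80, adjusted p = 0.0227) and higher in Smarcb1-RE (0.75, adjusted p = 0.0153). Sin3a, which Klf10 and Klf11 recruit, was lower in Smarcb1-RE (-0.16, adjusted p = 0.00205) but not with library totals only (0.00, adjusted p = 0.94). In the TGF-beta pathway, which induces Klf10 and Klf11, 5 of 9 genes were higher and 2 lower with SAHA, and 3 higher and 3 lower in Smarcb1-RE (median 0.52 and 0.03). The latter depended on the scaling, with 5 higher and 1 lower (median 0.19) with library totals only. The ligand gene Tgfb1 had 1.9 ± 0.305 CPM in control, 5.99 ± 0.758 CPM with SAHA and 1.01 ± 0.229 CPM in Smarcb1-RE (log2 fold change 1.65 and -0.91). The inhibitor Smad7 rose with SAHA (1.57, adjusted p = 0.00378) and was not called in Smarcb1-RE (-0.53, adjusted p = 0.353). Tgfbr1 rose in both (0.58 and 1.13).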

How the data were processed

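RNA-seq was performed on 9 libraries of T15 cells, 3 each of control, SAHA and Smarcb1-RE, from a directional kit with single-end sequencing. The authors deposited a table of estimated counts per Ensembl gene, without normalization or pooling, in which 52.4% of values above 0 had decimals. The submitters' processing notes name FastQC 0.11.8, MultiQC 1.7, Salmon 0.14.1, DESeq2 1.22.2 and the build GRCm38, and the settings are not given in the sources used here. Such estimates divide reads among similar transcripts, so that genes with shared sequence are less certain.

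Counts were rounded and tested in R 4.3.3 with edgeR 4.0.16 (TMM, low-count filter by filterByExpr at a count of 10, glmQLFit, glmQLFTest, 1 fit to the 9 libraries, Benjamini-Hochberg adjustment over 13697 genes, adjusted p-value under 0.05). Standard errors were derived from F and the log2 fold change, and intervals cover 95%. Log2 CPM for the likeness of patterns used a prior count of 2. Gene names and positions came from GENCODE M21 (GRCm38), which held 99.5% of the identifiers and 99.9% of the counts. Promoters and their positions came from RefSeq (GRCm38.p6). Shared sequence was counted in words of 31 bases over the transcripts. A level of 3 counts was taken as the floor, which covers counting error only. Intervals also cover the spread between replicate libraries as estimated by the fit, but no error shared by all libraries of a group.

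The genes and lists were chosen with earlier results of these data known. Named genes were the 9 genes, Smarcb1, other Klf genes and sphingosine 1-phosphate receptors, of each described list at least the 2 tested genes (where there were as many) that differed most in each comparison on the log2 scale, and the 5 protein-coding genes most like Klf2 and S1pr1 (average log2 CPM from 1 upward). Replicate numbers came from the titles, and the study calls the replicates biological. No pair of libraries was alike within sampling noise. Alternatives were DESeq2 1.42.0, RLE factors, library totals only, separate fits, no filter, a floor of 10 counts for each library, a replicate block, an adjusted p-value under 0.01, a minimum log2 fold change of 1, thinned counts, other gene lengths and leaving out each library. For the lists, library totals only was added after seeing the data. The fit was tested on simulated counts. Some genes of the lists are not reported here.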

Additional observations from a re-analysis of the deposited data

How the results depend on the processing

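Of 456 log2 fold changes of the 8 tested genes over the alternatives, 436 kept their direction and their side of the threshold, and those of Klf2, S1pr1 in Smarcb1-RE, Klf11 and Klf12 in Smarcb1-RE did so under every alternative. The 5 that changed sign were all near 0 in Smarcb1-RE against control. Klf6 (-0.03) became 0.127 with library totals only and 0.024 with at least 10 counts in every library. Klf13 (0.03) became -0.002 without a filter and ranged from -0.032 to 0.064 when a library was left out, below 0 without control replicate 1 or Smarcb1-RE replicate 1. With library totals only, 1 gene was called lower and 6 higher in Smarcb1-RE against control in place of 2 and 4. Of the lists, the Smarcb1-RE counts of called lower genes then became 1 in place of 2 for supply of the ligand and 1 in place of 3 upstream of Klf2, and with SAHA 10 in place of 11 quiescence genes were higher. With a minimum log2 fold change of 1, 0 genes were higher and 1 lower with SAHA, 1 was lower in Smarcb1-RE against control and 1 lower against SAHA. Counts changed there by construction, since it asks for larger differences. The cause of the other changes was not tested.

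Same-numbered libraries of different groups did not deviate together (correlations of -0.072 to 0.037 in 9 pairs, and of -0.036 to 0.051 in 18 other pairs), so the numbers were not taken as pairs. The replicate block left 4 higher and 2 lower in both comparisons with control and 4 and 4 between treatments, and called no other member. Without control replicate 1, the library that stood apart, Klf12 with SAHA was called (0.662). Depth limits Klf2, Klf3 and Klf12, with 0 to 93 counts per library, and small differences in Smarcb1-RE depend on scaling. With a minimum log2 fold change of 1, 0 of the 4 trafficking genes were higher with SAHA, and 1 was higher and 2 lower in Smarcb1-RE against control.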
